A study of Mus musculus with 6 samples.

Results

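SH2 adaptors are signalling proteins without enzyme activity that bind phosphorylated tyrosines through an SH2 domain and bring other proteins to an activated receptor. The members described here were the 4 genes of the Shb family (Shb, Shd, She and Shf), the 3 genes of the Grb7 family (Grb7, Grb10 and Grb14) and Grb2. They were 8 of the 27179 gene identifiers in the count data, found by their Entrez identifiers. The set was chosen by the measured levels of 2 of its genes, since Shb and Grb7 were much higher in TETact-v3 cells than in wild-type cells, and the members' differences from wild type are given as a description with standard errors and without a test. Only the comparison between the 2 TETact-v3 groups is tested for them.

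RNA-seq covered A20, a mouse B cell lymphoma line of BALB/c origin, in 3 groups of 2 libraries. Wild-type A20 cells carried no transgene. Both TETact-v3 groups carried dCas9 with SunTag epitopes that recruit the TET1 catalytic domain, and an MS2 coat protein fused to the p65-hsf1 activator that binds MS2 aptamers in the sgRNA. One of these groups received a non-targeting control sgRNA and the other an sgRNA against the Cd4 promoter, and both were collected on day 7 after sgRNA transduction. The transduced cells were enriched by sorting, and the methods do not describe them as a single clone. A difference from wild type cannot be told apart into parts owed to the transgenes, the transduction, the sorting or the presence of an sgRNA. Both TETact-v3 groups share all of these and differ in the target of the sgRNA.

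Library totals ran from 23194920 to 121623410 counts, with the control sgRNA libraries the deepest, and a floor of 3 counts stood at 0.0270 to 0.140 CPM in the 6 libraries. CPM are counts per 1000000 counts of a library, with library sizes adjusted by the TMM method. Cd4, the targeted gene, was at 0.796 and 0.794 CPM in wild type, 1.14 and 1.53 CPM with control sgRNA and 913 and 945 CPM with Cd4 sgRNA. All 8 B cell markers were detected, with a summed level of 1843 to 1855 CPM in wild type and 1127 to 1405 CPM in the TETact-v3 libraries. Cd79a and Cd79b fell most in CPM. Not every marker was lower, since Blk was higher than wild type in both control sgRNA libraries. Of 7 T cell markers only 3 passed 3 counts in any library, the sum was at most 1.29 CPM, and Cd3e was at 0. Sums over the lists of 5 myeloid and 5 fibroblast markers were at most 2.40 and 0.507 CPM, with Cd14, Col1a2 and Lum at 0. The sum over 4 epithelial markers was 13.1 to 37.1 CPM and came almost entirely from Epcam. Mitochondrial genes held 2.65% and 2.69% of the counts in wild type and 5.96% to 11.5% in the TETact-v3 libraries.

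As background, Grb2 joins activated receptors to the Ras exchange factor Sos through its SH3 domains, and in B cells it also takes part in the dampening of antigen receptor signals. Shb links receptors for PDGF, VEGF and T cell antigen to downstream kinases, and Shd, She and Shf are its less studied relatives. Grb7 binds ErbB2 and focal adhesion kinase. Grb10 and Grb14 bind the insulin receptor and restrain it, and Grb10 is an imprinted gene.

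Because the TETact-v3 system is built to demethylate promoters, the promoter windows of the members are shown for their CpG content. RefSeq (GRCm38.p6) gave at least 1 window of 250 bases before a transcription start for 7 of the 8 members, 10 windows in all, and none was at hand for Grb7. The 4 below were chosen as that of Shb, that of Shf as the other measured gene of its family, and those of She and Grb14 as genes at or near 0 counts. They lie at chr4:45530829-45531078 (minus strand) for Shb, chr2:122369148-122369397 (minus strand) for Shf, chr3:89831120-89831369 (plus strand) for She and chr2:65022767-65023016 (minus strand) for Grb14, and run 5′ to 3′ with CpG dinucleotides in capitals.
Shb: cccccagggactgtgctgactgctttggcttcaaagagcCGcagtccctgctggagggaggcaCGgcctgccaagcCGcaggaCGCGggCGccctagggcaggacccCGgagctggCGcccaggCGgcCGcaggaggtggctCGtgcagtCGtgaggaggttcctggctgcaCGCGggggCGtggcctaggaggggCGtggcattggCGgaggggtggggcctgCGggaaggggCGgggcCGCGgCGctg
Shf: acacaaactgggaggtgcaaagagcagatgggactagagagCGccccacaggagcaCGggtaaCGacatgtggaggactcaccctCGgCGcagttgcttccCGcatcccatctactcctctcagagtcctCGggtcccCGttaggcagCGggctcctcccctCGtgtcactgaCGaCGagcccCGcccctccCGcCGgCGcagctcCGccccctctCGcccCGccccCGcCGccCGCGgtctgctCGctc
She: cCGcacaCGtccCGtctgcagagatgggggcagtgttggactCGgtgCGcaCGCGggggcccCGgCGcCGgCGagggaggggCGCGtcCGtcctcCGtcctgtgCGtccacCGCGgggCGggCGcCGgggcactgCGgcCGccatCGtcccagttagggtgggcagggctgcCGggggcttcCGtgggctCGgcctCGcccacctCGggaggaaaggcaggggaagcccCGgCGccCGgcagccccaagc
Grb14: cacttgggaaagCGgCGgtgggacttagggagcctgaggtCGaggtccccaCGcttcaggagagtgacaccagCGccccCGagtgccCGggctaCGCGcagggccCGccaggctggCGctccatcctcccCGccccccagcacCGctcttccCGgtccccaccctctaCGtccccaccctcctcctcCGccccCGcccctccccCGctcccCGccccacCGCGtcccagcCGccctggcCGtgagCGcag

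The Shb window held 22 CpG dinucleotides, and 85.2% of all 32841 promoter windows held fewer. It was placed before the RefSeq start. In GENCODE the Shb gene extends to 45532470, so the window lies inside that longer span, outside its annotated exons. The windows of Shf and Grb14 held 24 each, and that of She held 32. Among the windows not shown, the second Shf start had 29, the first Grb10 start had 40, the second Grb10 start had 8 and Shd had 12. The windows of Shd and of the second Shf and Grb10 starts lie wholly or mostly inside the spans of their genes. The 2 Grb2 starts, which lie inside the Grb2 span, had 2 and 6. No window was at hand for the outer start of that span, so its CpG content is not given. The median over all windows was 6 CpG, with quartiles of 2 and 16. The member windows above the upper quartile were those of Shb, Shf, She, Grb14 and the first start of Grb10. Any part of CpG content in the levels of the members was not tested. The GC box GGGCGG, searched on both strands, occurred 1 time in the Shb window, 1 time in that of She, 4 times in that of Shf and 5 times in that of Grb14, and 32.7% of all windows held it. A kB-like motif, GGGANNTTC, and the heat shock motif GAANNTTC, which correspond to the factors that p65 and hsf1 come from, matched in none of the 10 member windows on either strand, against 3.23% and 6.70% of all windows. At such shares 0 matches in 10 windows are common, so no difference from all windows is read from them. Matches describe letters only, and methylation was not analysed here.

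**Figure D1:**
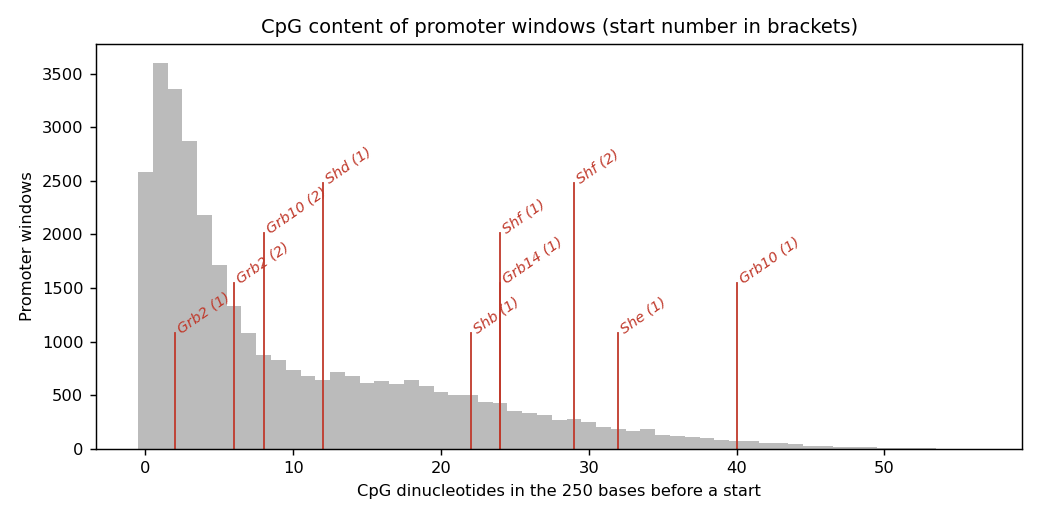
Number of promoter windows (y axis) by CpG dinucleotides in the 250 bases before a start (x axis) for all 32841 RefSeq windows, with the 10 windows of members as red lines labelled by gene and start number. Shb at 22, Shf at 24 and 29, Grb14 at 24, She at 32 and the first Grb10 start at 40 lie in the CpG-rich tail. Both Grb2 starts, which lie inside the Grb2 span, are at or below the median of 6, and the outer Grb2 start has no window.

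In the TETact-v3 libraries Shb and Grb7 were far above wild type, Grb2 was the most abundant member throughout, Shf was low, and Shd, She, Grb10 and Grb14 were at or near 0. Only Shb, Shf, Grb7 and Grb2 passed the filter on low counts and could be fitted. In bulk RNA a change in the number of cells that express a gene and a change of RNA per cell cannot be told apart.

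Shb (Entrez gene 230126, chr4:45423276-45530828 of GRCm38, minus strand) was counted 15 and 12 times in wild type, 2198 and 1851 times with control sgRNA and 811 and 1116 times with Cd4 sgRNA. This was 0.323 and 0.560 CPM in wild type, 19.8 and 22.9 CPM with control sgRNA and 24.8 and 25.2 CPM with Cd4 sgRNA. The groups were thus 0.442 ± 0.168, 21.3 ± 2.19 and 24.98 ± 0.325 CPM (SD, n = 2 each). Every TETact-v3 library was above every wild-type library, and the lowest of the first was 35.3 times the highest of the second. The log2 fold change from wild type was 5.73 (standard error 0.23) with control sgRNA and 5.95 (standard error 0.23) with Cd4 sgRNA, which placed Shb 78th and 68th from the top among 12418 genes. The wild-type counts were few, so leaving out 1 wild-type library moved the first value to 5.27 or 6.06 and the second to 5.50 or 6.29. A miRNA gene, Gm22518, lies on the same strand within Shb and is not among the counted genes.

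Grb7 (Entrez gene 14786, chr11:98446834-98455373, plus strand) was counted 245 and 137 times in wild type, 4247 and 3316 times with control sgRNA and 1308 and 1743 times with Cd4 sgRNA. The levels were 5.27 and 6.40 CPM in wild type, 38.2 and 41.0 CPM with control sgRNA and 39.9 and 39.4 CPM with Cd4 sgRNA. The 4 TETact-v3 libraries of Grb7 lay close together, the lowest at 5.97 times the highest wild-type library. Group levels were 5.84 ± 0.796, 39.6 ± 1.96 and 39.6 ± 0.384 CPM (SD, n = 2 each). The log2 fold change from wild type was 2.79 (standard error 0.13) in both TETact-v3 groups, with ranks of 244 and 178 among the 12418 genes.

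Grb2 (Entrez gene 14784, chr11:115644045-115708597, minus strand) had the smallest relative spread of the members. It was counted 14771 and 6706 times in wild type, 29581 and 24471 times with control sgRNA and 8477 and 11211 times with Cd4 sgRNA. The levels were 318 and 313 CPM in wild type, 266 and 302.5 CPM with control sgRNA and 259 and 253 CPM with Cd4 sgRNA. The differences were small, with log2 fold changes from wild type of -0.15 (standard error 0.093) with control sgRNA and -0.30 (standard error 0.094) with Cd4 sgRNA. The first value was -0.038 without control sgRNA replicate 1 and became -0.24 with replicate 2 left out instead. A processed pseudogene, Gm11702, lies within the Grb2 span and is not among the counted genes.

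Shf (Entrez gene 435684, chr2:122348892-122369147, minus strand) was counted 82 and 27 times in wild type, 252 and 297 times with control sgRNA and 46 and 84 times with Cd4 sgRNA. The levels were 1.76 and 1.26 CPM in wild type, 2.27 and 3.67 CPM with control sgRNA and 1.40 and 1.90 CPM with Cd4 sgRNA. Both control sgRNA libraries were above the other 4, which overlapped between wild type and Cd4 sgRNA. The log2 fold change from wild type was 0.88 (standard error 0.35) with control sgRNA and 0.081 (standard error 0.42) with Cd4 sgRNA. Control sgRNA replicate 2, the highest library for Shf, also had the highest mitochondrial share (11.5%) and the highest sum of epithelial markers (37.1 CPM, against 25.9 CPM in the other control sgRNA library and 13.1 to 17.4 CPM elsewhere), and their part in the Shf level was not tested.

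The remaining members gave at most 4 counts in any library. Shd was counted 1 and 1 times in wild type, 4 and 0 times with control sgRNA and 1 and 0 times with Cd4 sgRNA. She was counted 1 and 2 times with control sgRNA and 0 times elsewhere. Grb10 was counted 1 time in control sgRNA replicate 2 and 1 time in Cd4 sgRNA replicate 1. Grb14 had 0 counts in all 6 libraries, which allows a level of up to 0.0270 CPM in the deepest library and 0.140 CPM in the shallowest. These 4 genes were not detectable above the floor at this depth apart from Shd in control sgRNA replicate 1, and no fold change is given for them. The floors cover counting error only.

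**Figure D2:**
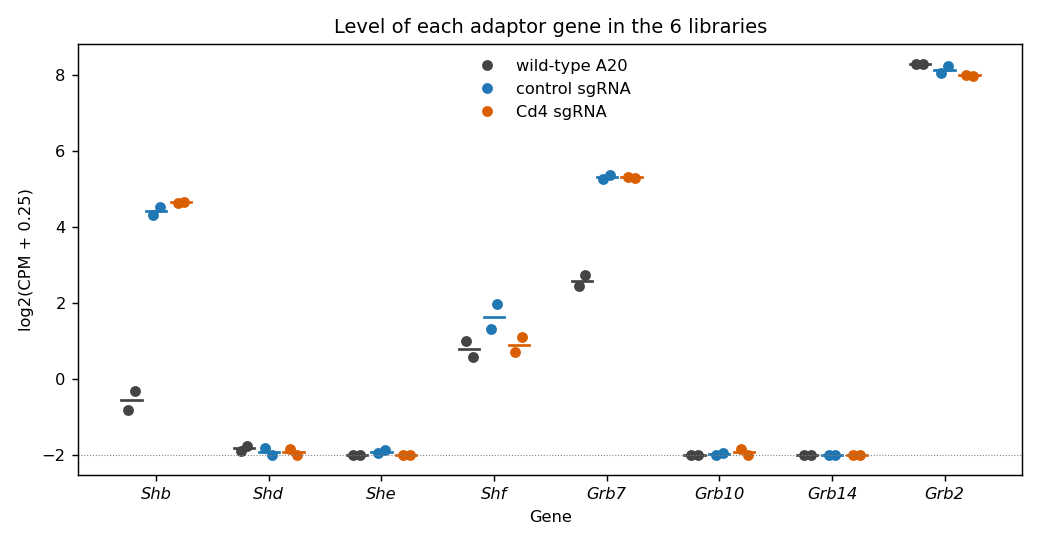
Level of each member as log2(CPM + 0.25) in each library (points, 2 per group) with the group mean (bar), for wild-type A20, control sgRNA and Cd4 sgRNA cells, and the dotted line at 0 counts. Shb and Grb7 are higher in all 4 TETact-v3 libraries, Grb2 is the highest gene in every library, and Shd, She, Grb10 and Grb14 lie at or just above the dotted line.

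Divided by exon length to compare genes, wild type had Grb2 at 120.3, Grb7 at 2.43, Shf at 0.971 and Shb at 0.161 CPM per kb of exon. With control sgRNA the levels were 108 for Grb2, 16.5 for Grb7, 7.77 for Shb and 1.91 CPM per kb for Shf, and with Cd4 sgRNA they were 97.6, 16.5, 9.10 and 1.06 CPM per kb in the same order. No neighbours in these orders overlapped between their 2 libraries. Shb and Shf changed places, with Shb at 0.166 times the Shf level in wild type, 4.08 times with control sgRNA and 8.59 times with Cd4 sgRNA. Grb2 was 49.4 times the level of Grb7 in wild type and 6.56 and 5.90 times in the 2 TETact-v3 groups. Grb2 thus exceeded Grb7 by less in TETact-v3 cells, although it stayed the most abundant. Mitochondrial shares and B cell marker sums also differed between wild type and the TETact-v3 libraries, as given above, and their part in the levels of Shb and Grb7 was not tested.

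The members were tested between Cd4 sgRNA and control sgRNA cells with the quasi-likelihood test of edgeR, at a Benjamini-Hochberg adjusted p under 0.05, which 0.0725% of all 12418 genes passed (0.0242% higher and 0.0483% lower). None of the 4 fitted members passed, with 0 also at an unadjusted p under 0.05 in edgeR and 0 by voomLmFit or DESeq2. Grb7 differed least, at a log2 difference of 0.0017 (standard error 0.11, adjusted p = 0.993 by edgeR). Shb was higher with Cd4 sgRNA by 0.23 (standard error 0.13, adjusted p = 0.301 by edgeR). Grb2 differed by -0.15 (standard error 0.093, adjusted p = 0.33 by edgeR) and Shf by -0.80 (standard error 0.34, adjusted p = 0.205 by edgeR). These outcomes depended on single control sgRNA libraries. With control sgRNA replicate 1 left out, Shf at -1.12 (adjusted p = 2.3e-05) and Grb2 at -0.24 (adjusted p = 0.0012) passed in edgeR, and with replicate 2 of that group left out, Shb at 0.34 (adjusted p = 0.0072) passed, while Grb7 passed in neither. In such fits the remaining control library is assumed to vary like the other groups.

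**Figure D3:**
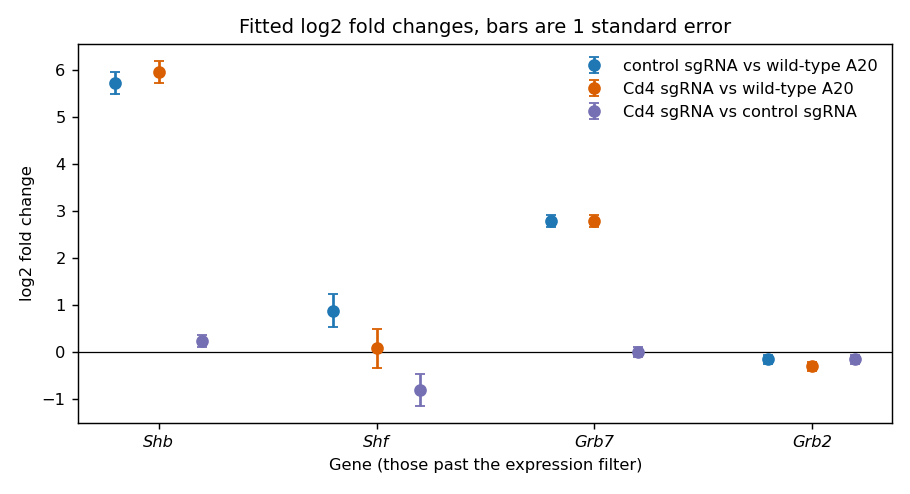
Fitted log2 fold change (points) with 1 standard error (bars) for the 4 members past the filter in the 3 comparisons. Shb stands at 5.73 and 5.95 and Grb7 at 2.79 against wild type in both TETact-v3 groups, while the 4 members lie between -0.80 and 0.23 in the comparison of the TETact-v3 groups.

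The genes around Shb and Grb7 were compared next. Slc25a51, a mitochondrial carrier 14.4 kb from Shb, differed by -0.064 (standard error 0.092) with control sgRNA and 0.066 (standard error 0.093) with Cd4 sgRNA against wild type, and neither difference passed the threshold. Dcaf10, a ubiquitin ligase substrate receptor, was the other tested gene within 100 kb of Shb. It differed from wild type by -0.053 (standard error 0.15) with control sgRNA and by 0.50 (standard error 0.15, adjusted p = 0.059 by edgeR) with Cd4 sgRNA, and neither difference passed. No gene on the higher-coordinate side of Shb was tested within that distance.

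Erbb2, which encodes a receptor that Grb7 binds, ends 9.12 kb from Grb7 and was counted at most 2 times in any library. Of the tested genes that do not overlap Grb7 in RefSeq, Pgap3, a GPI anchor remodelling enzyme, was nearest at lower coordinates and did not pass, at -0.11 (standard error 0.14) with control sgRNA and 0.18 (standard error 0.15) with Cd4 sgRNA. Ikzf3, which encodes the lymphoid factor Aiolos, lies 9.24 kb away on the other side. It was at 632 CPM in wild type, 533 CPM with control sgRNA and 473 CPM with Cd4 sgRNA on average. With control sgRNA it differed by -0.25 (standard error 0.090, adjusted p = 0.088 by edgeR), and it fell by 0.42 with Cd4 sgRNA (standard error 0.091, adjusted p = 0.026 by edgeR). That call did not hold in every fit with a single library left out, and the fits in which it held are not given. The span of Mien1 in RefSeq overlaps that of Grb7, and because the sources do not say whether strand was used in counting, reads of the overlap cannot be assigned. In GENCODE, Mien1 ends at 98438991 and Grb7 starts at 98446394, so that they do not overlap and Mien1 is the nearest tested gene at lower coordinates. Mien1 differed by -0.22 and -0.20 (standard errors 0.095 and 0.097) and did not pass. None of the 5 tested neighbours of Grb7 passed the threshold as higher in either comparison with wild type.

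**Figure D4:**
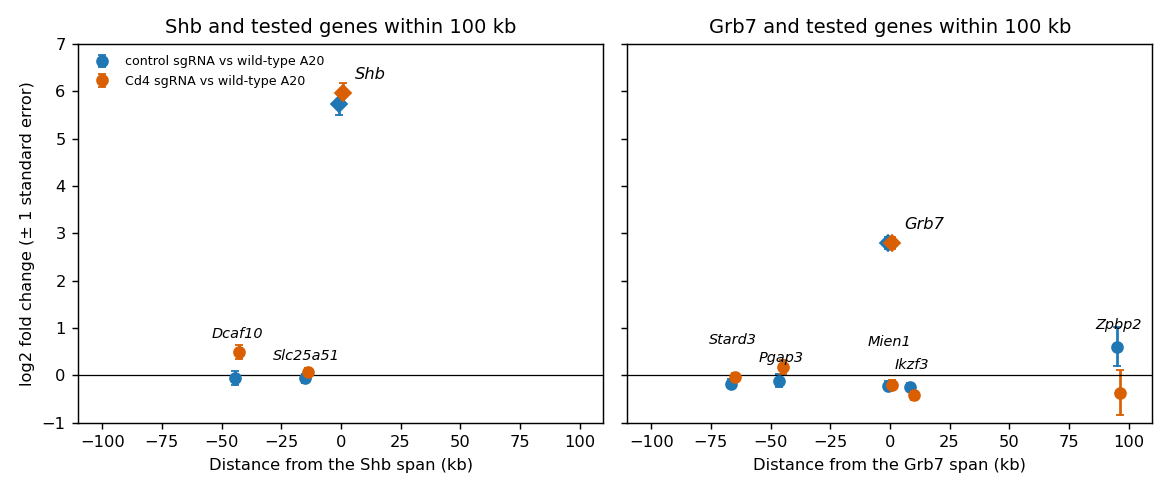
Log2 fold change against wild type (y axis, with 1 standard error) by distance in kb from the span of Shb (left) or Grb7 (right), with the member as a diamond and tested genes within 100 kb as circles. Mien1, whose span overlaps Grb7, is at 0 kb. Shb and Grb7 stand at 5.73 to 5.95 and 2.79, while the tested neighbours lie between -0.42 (Ikzf3) and 0.61 (Zpbp2).

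Over all 8 members, 32 of 46 genes within 100 kb were tested. With control sgRNA 6 were higher and 5 lower than wild type, against 14.5% and 13.5% of all genes, and with Cd4 sgRNA 4 were higher and 4 lower, against 9.85% and 10.7%. The median log2 fold changes were -0.11 and -0.032, beside -0.0012 and 0.0045 over all genes. Between the TETact-v3 groups none passed in edgeR, with 6 at an unadjusted p under 0.05, 0 by voomLmFit and 4 by DESeq2. The counts of 11 and 8 called against wild type were 1 each without wild-type replicate 2, 1 and 0 without wild-type replicate 1, 2 and 1 without Cd4 sgRNA replicate 1, 2 and 0 without Cd4 sgRNA replicate 2, 24 and 17 without control sgRNA replicate 1, and 21 and 18 with replicate 2 of that group left out.

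The signalling partners of the adaptors were described by 4 lists of 95 genes, of which 66 were tested. Against wild type, 10 were higher and 14 lower with control sgRNA, and 4 were higher and 7 lower with Cd4 sgRNA. Expressed as shares, 36.4% and 16.7% were called, beside 28% and 20.5% of all genes. The lists' median log2 fold changes were -0.033 and -0.028. The totals of 24 and 11 called were 0 and 0 without either wild-type library, 10 and 0 without either Cd4 sgRNA library, 55 and 39 without control sgRNA replicate 1, and 40 and 40 with replicate 2 of that group left out. Between the TETact-v3 groups none of the 66 passed in edgeR, with 23 at an unadjusted p under 0.05, 0 by voomLmFit and 15 by DESeq2.

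In the Ras-MAPK arm that Grb2 feeds, 3 of 21 tested genes rose and 4 fell with control sgRNA, and 2 rose and 1 fell with Cd4 sgRNA. The shares called were 33.3% and 14.3%, beside 28% and 20.5% of all genes. Sos1, the Ras exchange factor that Grb2 carries, was at 50.9 and 47.4 CPM in wild type, 77.6 and 84.3 CPM with control sgRNA and 67.0 and 63.8 CPM with Cd4 sgRNA. It rose by 0.72 and 0.41 on the log2 scale (standard error 0.093 in both, adjusted p = 0.0046 and 0.030 by edgeR). Shc4, a phosphotyrosine adaptor, rose with control sgRNA by 0.88 (adjusted p = 0.040 by edgeR). Gab1, a docking protein that Grb2 binds, was lower by 2.74 and 2.43, with 31 and 8 counts in wild type and 4 to 10 counts in the other libraries. It is among the genes counted as lower above. Gab1 passed the filter on low counts only through its wild-type libraries, which favoured a call as lower in advance. Its calls are therefore not taken as a result. Cbl, a ubiquitin ligase for activated receptors, and Rasa1, a GTPase-activating protein for Ras, fell by 0.65 and 0.39 with control sgRNA (adjusted p = 0.0042 and 0.017 by edgeR).

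Of the 19 listed receptors that recruit these adaptors, 5 were tested, and 2 rose with control sgRNA and none with Cd4 sgRNA. Over all genes, 14.5% and 9.85% were higher in these comparisons. Pdgfrb, a PDGF receptor, was at 1.12 and 1.03 CPM in wild type, 5.06 and 9.77 CPM with control sgRNA and 1.25 and 1.22 CPM with Cd4 sgRNA. With control sgRNA it rose by a log2 value of 2.75 (standard error 0.44, adjusted p = 0.0088 by edgeR), while Cd4 sgRNA differed from control sgRNA by -2.57 (standard error 0.41, adjusted p = 0.104). Flt1, a VEGF receptor, was the other gene counted as higher, by 2.43 with control sgRNA (standard error 0.61) from 10 and 2 counts in wild type. With Cd4 sgRNA Flt1 differed from wild type by 2.05 (standard error 0.70). It passed the filter on low counts only through TETact-v3 libraries, which favoured a call as higher in advance, so that call is not taken as a result. Between the TETact-v3 groups Flt1 differed by -0.38 (standard error 0.41, adjusted p = 0.556 by edgeR). Erbb3, a receptor of the ErbB family, was the most abundant of the 5 on average, at 36.4 CPM in wild type, 33.7 CPM with control sgRNA and 31.0 CPM with Cd4 sgRNA, and was not past the threshold in any comparison. Fgfr1 and Il2rb were tested and did not pass either. The listed receptors other than these 5 did not pass the filter on low counts.

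Among 16 tested partners of Shb or of the Grb7 family, 4 rose and 3 fell with control sgRNA, and 1 rose and 1 fell with Cd4 sgRNA. Called shares were thus 43.8% and 12.5%, beside 28% and 20.5% of all genes. Src, a tyrosine kinase, rose by 0.96, Pik3r1, the regulatory subunit of PI3 kinase, by 0.54 and Mtor, a growth kinase, by 0.34 with control sgRNA (adjusted p = 0.0081, 0.016 and 0.027 by edgeR). Akt1, a kinase downstream of PI3 kinase, fell by 0.65, Vav1, a guanine nucleotide exchange factor of lymphocytes, by 0.55 and Jak1, a cytokine receptor kinase, by 0.33 (adjusted p = 0.0057, 0.0067 and 0.047 by edgeR). With Cd4 sgRNA Pik3r1 rose by 0.52 and Akt1 fell by 0.61 (adjusted p = 0.024 and 0.0094 by edgeR).

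Among 24 other tested SH2 adaptors, 1 rose and 7 fell with control sgRNA, and 1 rose and 5 fell with Cd4 sgRNA, with medians of -0.26 and -0.067. Blnk, the B cell linker of the antigen receptor, was at 330.2 and 341 CPM in wild type, 196 and 208 CPM with control sgRNA and 217 and 209 CPM with Cd4 sgRNA. It fell by 0.73 with control sgRNA and by 0.66 with Cd4 sgRNA (standard error 0.084 in both, adjusted p = 0.0033 and 0.0064 by edgeR). Sla, which dampens antigen receptor signals, fell by 1.18 and 1.72, and Sh2b2, an adaptor of receptor kinases, by 0.89 and 0.91 (adjusted p = 0.010, 0.0075, 0.011 and 0.014 by edgeR). Nck1, an adaptor to the actin cytoskeleton, rose by 0.34 and 0.35 (adjusted p = 0.043 and 0.048 by edgeR). Against these counts, 14.5% of all genes were higher and 13.5% lower in the first comparison, and 9.85% and 10.7% in the second. The summed level of B cell markers was lower in the TETact-v3 libraries, and its part in the level of Blnk was not tested.

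**Figure D5:**
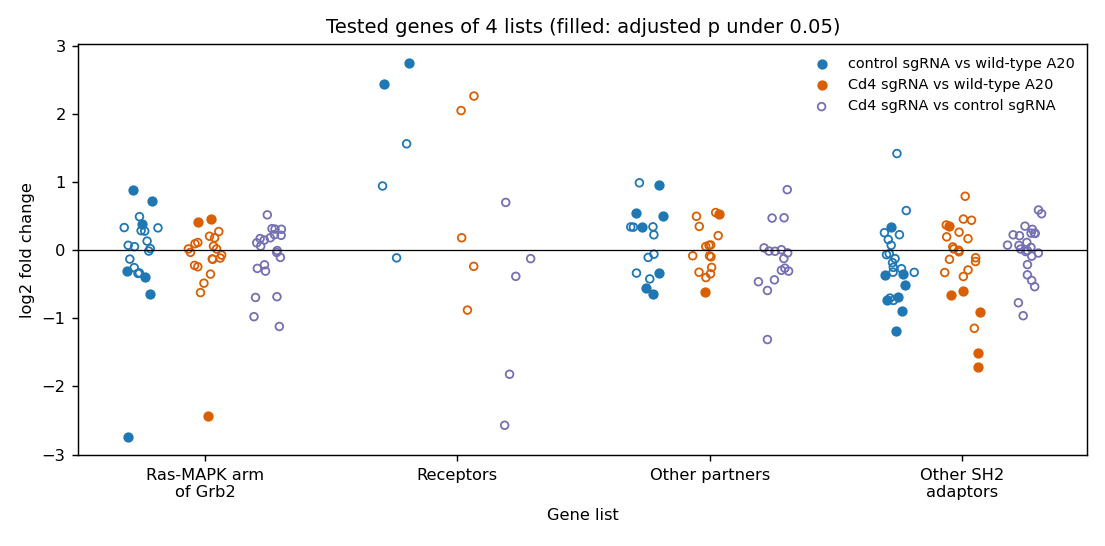
Log2 fold change of each tested gene (circle) in the 4 lists for the 3 comparisons, filled where the adjusted p was under 0.05 in edgeR. Filled circles number 24 with control sgRNA and 11 with Cd4 sgRNA against wild type, and 0 between the TETact-v3 groups.

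The genes with the pattern most like that of each leading member were sought by the Euclidean distance of mean-centred log2 CPM over the 6 libraries. For Shb they were Stra6, Tex101, Enpp3, Pdia5 and Arhgap29, at distances of 0.764 to 0.852. Enpp3, an ectonucleotidase and the most abundant of these, was at 6.63 and 6.40 CPM in wild type, 329 and 213 CPM with control sgRNA and 317 and 336 CPM with Cd4 sgRNA. Stra6, a retinol transporter, had 0 counts in both wild-type libraries and 70 to 166 counts in the others. For Grb7 the nearest were Madcam1, Cyb561, Zbtb8a, Fam83g and Mpp7, at distances of 0.217 to 0.362. Madcam1, an adhesion molecule of mucosal vessels, was at 0.710 and 0.887 CPM in wild type, 5.56 and 6.18 CPM with control sgRNA and 5.10 and 6.10 CPM with Cd4 sgRNA. Fam83g was the one of these closest to Grb7 in level, at 5.79 and 7.19 CPM in wild type and 35.9 to 39.7 CPM in the TETact-v3 libraries. Shb and Grb7 themselves stood 3.35 apart, so that Grb7 ranked 129th in likeness to Shb, and Shb 7337th in likeness to Grb7. The distance was not scaled for the size of a change, so it sets apart genes that rise by unlike amounts. Those ranks therefore do not mean that the 2 genes differ in direction, since each was higher than wild type in every TETact-v3 library.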

How the data were processed

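RNA-seq was available for 3 groups of 2 libraries, grouped by the sample labels. Alignment to mm10 (Rsubread) and counting per gene (featureCounts, RefSeq genes) were done by the authors. The deposited counts are whole numbers that were not normalized, beside a deposited exon length, which served as the length of each gene. The use of strand in counting is not given in the sources used here. A series-wide table held the same counts and was left out.

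RefSeq and GENCODE annotation of GRCm38 gave symbols, positions and strands. Genes were filtered with filterByExpr (min.count 10) and by annotation (no symbol, a duplicated symbol, mitochondrial or ribosomal RNA genes), which left 12418 genes, with TMM scaling. Comparisons used the quasi-likelihood functions glmQLFit and glmQLFTest of edgeR 4.0.16 (robust, two-sided) with a term per group over all 6 libraries and Benjamini-Hochberg adjustment. Standard errors were derived from the log2 fold change and its F statistic. Alternatives were voomLmFit, the test of the study (run through edgeR with limma 3.58.1), DESeq2 1.42.0, other scalings and filters, thinned control sgRNA counts, fits of 2 groups, a replicate block and each library left out, in R 4.3.3. The legacy quasi-likelihood method was added after seeing the data. With 2 libraries against 2, calls rest on the model, and replicates are described only as independently repeated, so p-values measure the spread between these samples. Deviations of same-numbered libraries correlated at -0.035, 0.014 and -0.14, so the numbers were not taken to pair the samples. The edgeR, voomLmFit and DESeq2 tests were run on simulated counts for control sgRNA against wild type. The simulation gave every gene and library the same spread and set large changes in some genes. It therefore did not cover groups of unlike spread or small changes, and the other alternatives were not simulated.

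The members, gene lists and tests were chosen with earlier results of these data known. Genes named were the 8 members, for each list and comparison the 3 called genes with the smallest p in each direction whose CPM did not overlap between groups, the nearest tested neighbours of Shb and Grb7 and their called neighbours, the 5 genes most like each of these in pattern, Cd4 and Erbb2. Mien1, Dcaf10, Zpbp2, Erbb3, Fgfr1, Il2rb and the remarks on single genes among those most like a member were added after their values were seen. The values of 1 gene that this rule takes are not reported here.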

Additional observations from a re-analysis of the deposited data

How the results depend on the processing

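Over 17 alternatives the log2 fold changes against wild type ranged from 5.27 to 6.06 and 5.50 to 6.29 for Shb and from 2.65 to 2.93 and 2.66 to 2.94 for Grb7, with control sgRNA and Cd4 sgRNA in turn. Between the TETact-v3 groups 0 members were called under the replicate block and under every other alternative except the leaving out of a control sgRNA library, where the count ranged from 0 to 2 over the 6 libraries left out. The adjusted p in edgeR and the other tools ranged from 0.0072 to 0.70 for Shb, from 2.3e-05 to 0.64 for Shf, from 0.66 to 1 for Grb7 and from 0.0012 to 0.74 for Grb2. For the 66 genes of the 4 lists, the 24 calls with control sgRNA against wild type became 10 in a fit of these 2 groups and 0 to 55 with a library left out. The 11 calls with Cd4 sgRNA became 18 with DESeq2, 40 in a fit of 2 groups, 7 with the replicate block, 7 with voomLmFit and 0 to 40 with a library left out. The 0 calls between the TETact-v3 groups became 15 with DESeq2 and 0 to 46 with a library left out. For the 32 neighbours, the 11 calls with control sgRNA became 2 in a fit of 2 groups, 5 with the replicate block, 5 with voomLmFit and 1 to 24 with a library left out, and the 8 with Cd4 sgRNA became 17 in a fit of 2 groups, 5 with the replicate block and 0 to 18 with a library left out. The 0 between the TETact-v3 groups became 4 with DESeq2 and 0 to 22 with a library left out. Replicates did not differ equally within the groups. Measured as chi-square over its degrees of freedom, their disagreement was 245 for control sgRNA, 8.20 for wild type and 7.07 for Cd4 sgRNA. The control sgRNA libraries were also the deepest. The edgeR fit over all 6 libraries assumed a like spread in the 3 groups, so its adjusted p-values rest on that assumption. The cause of the shifts in calls was not tested. The replicate block moved the calls of the 4 lists with control sgRNA from 24 to 17. Depth limits the 4 members near 0 counts.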
